A study of Drosophila melanogaster with 12 samples.

Results

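The X chromosome of PnM cells was analysed from the Hi-C read pairs with both sides on the X sequence, called *cis* pairs of X. PnM is a clonal *Drosophila* line, male and diploid, made from embryos of a cross between the inbred lines DGRP-057 (mothers) and DGRP-439 (fathers), so that its only X is maternal while each autosome is present as a maternal and a paternal homolog. Over the 8 libraries, 49421045 of 143354680 pairs were *cis* pairs of X, and they were placed in 5606 bins of 4 kb along the 22.4 Mb of the X sequence (dm3 assembly, strain-specific bases inserted). Hi-C joins DNA ends that lie close to each other in the fixed nucleus, and each pair therefore counts 1 contact between 2 positions.

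The 4 groups, with 2 biological replicates each, were untreated cells, cells that received water in place of double-stranded RNA (mock), cells treated with double-stranded RNA against Slmb (Slmb RNAi) and cells treated with double-stranded RNA against TopII (TopII RNAi). RNAi cells received 30 µg of double-stranded RNA on day 1 and again on day 3 and were collected on day 4, and cells of all groups were fixed with 1% formaldehyde for 10 min. Every group shares the hybrid genotype, descends from 1 clone of probably mesodermal origin, and holds a fraction of cells with a maternal copy of part of 3R in place of the paternal one. Each RNAi group was sequenced in a lane of its own and untreated cells in 4 lanes, so that treatment, lane and transfection cannot be told apart, and the level of either knocked-down gene was not measured here.

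Chromosomes in the nucleus fold at several scales. Neighbouring loci meet far more often than distant ones, stretches of neighbouring genes form domains separated by boundaries that in flies are often occupied by insulator proteins and active promoters, and active (A) and inactive (B) chromatin each contact their own kind over longer distances. In male flies the X is also bound by the dosage compensation complex, which spreads from high-affinity sites into active genes and raises their transcription. Slmb is the substrate-recognition subunit of a ubiquitin ligase that keeps the condensin II subunit Cap-H2 at a low level, and TopII is the topoisomerase that passes one DNA duplex through another to untangle and condense chromosomes.

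The libraries of untreated cells held 37284329 and 38465767 pairs and the mock and knockdown libraries between 10190412 and 12077016. *Cis* pairs of X made up 34.0% to 35.4% of the pairs of a library, and 87.5% to 91.3% of the pairs with a side on X were *cis*. Because the reference holds a single X sequence, a read of X was assigned without a strain-specific base, whereas reads of the autosomes needed one. Per Mb, X therefore had 10.7 to 11.3 times the *cis* pairs over 1 kb of the mean autosomal homolog, and at most 0.947% of its pairs had a mapping quality score under 30, against 74.6% to 76.0% for *cis* pairs of autosomes. Where depth matters, X is therefore also given at matched depth, for which 8.28% to 8.83% of its pairs were drawn at random in each library. Of the bins of X, 418 (7.46%) were masked for low coverage, and insulation could be scored over 18.7 Mb.

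Contact frequency fell less steeply with separation on X than on any autosomal homolog. In untreated cells, with every arm set to its own contact frequency at 10 kb, X stood at 0.911 times the mean of the 8 autosomal homologs at 1 kb, 1.32 times at 100 kb, 1.81 times at 1 Mb and 2.41 times in the range that starts at 7499 kb. X ranked the lowest of the 9 arms at 1 kb and the highest at each of the longer separations named here. At 7499 kb the ratio was 2.43 and 2.38 in the untreated replicates, 2.20 and 2.18 in mock, 2.01 and 2.06 in Slmb RNAi, and 2.00 and 2.16 in TopII RNAi, so that the untreated libraries lay above all the others.

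**Figure D1:**
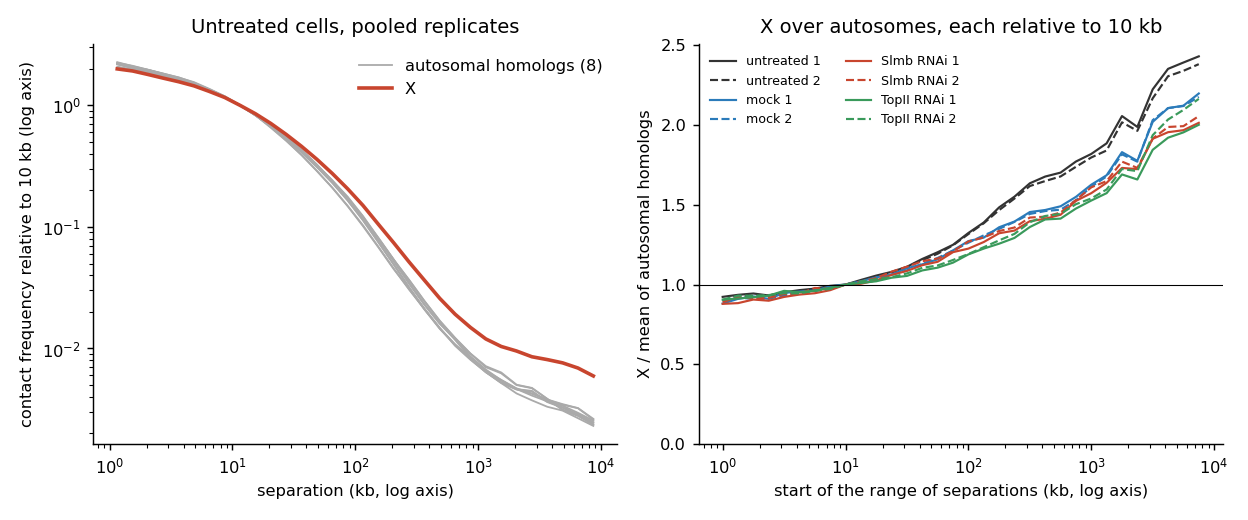
Left, contact frequency of X (red) and of the 8 autosomal homologs (grey) in pooled untreated cells against separation, each relative to its own value at 10 kb, both axes logarithmic. Right, X divided by the autosomal mean in each of the 8 libraries (solid lines replicate 1, dashed lines replicate 2): all libraries start below 1 at 1 kb and end between 2.00 and 2.43 at the longest separations.

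The slope of log10 contact frequency on log10 separation measures this decay. Over 1 to 10 kb the mean slope of the 8 libraries was −0.32 on X and −0.36 on autosomes, a difference of 0.040 ± 0.0068 (SD, n = 8 libraries). The difference was 0.091 ± 0.016 over 10 to 100 kb, where the slopes were −0.78 and −0.87. It was 0.11 ± 0.021 over 100 kb to 1 Mb, where the slopes were −1.13 and −1.24. Over 1 to 10 Mb it was 0.151 ± 0.017, with slopes of −0.45 and −0.60. In all 4 ranges X was the shallowest of the 9 arms on average and shallower than the autosomal mean in 8 of 8 libraries, with a two-sided exact sign-flip p of 0.0078, the smallest that 8 libraries can give, and 0.010 after adjustment over 8 measures compared in this way. Contacts between homologs, which X cannot make, are left out of these slopes. With *thom* (*trans*-homolog) pairs added to the *cis* pairs of autosomes, X was steeper than autosomes over 1 to 10 kb, by −0.0157 in slope. X was still shallower in the 3 longer ranges, though over 10 to 100 kb by less than with *cis* pairs alone. The part of homolog contacts in these differences was not tested.

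Long-range contacts made up a larger share of the pairs of X. Of its *cis* pairs between 1 kb and 10 Mb, 39.2% and 39.6% spanned 1 to 10 Mb in untreated cells, against autosomal means of 26.6% and 27.3%. Pairs of 1 to 10 kb made up 9.89% and 9.39% on X and 15.1% and 14.4% on autosomes. The 1 to 10 Mb share of X was 37.9% and 37.1% in mock, 43.3% and 41.8% in Slmb RNAi, and 33.5% and 36.0% in TopII RNAi. Both Slmb RNAi libraries lay above and both TopII RNAi libraries below all mock and untreated libraries. Such shares add up to 100% within an arm, so a higher share at one separation goes with a lower share elsewhere.

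The effect of the treatments was tested with limma in 32 ranges of separation (8 for each factor of 10), on log2 shares over X and the autosomal homologs together. In Slmb RNAi against mock, X rose in 7 ranges, from 1334 kb to 10 Mb, and fell in 11 ranges, from 13.3 to 316 kb. Over all arms, 54.2% of ranges changed, 21.5% upwards and 32.6% downwards, so that the share of X that changed was close to the background. In the longest range, 7499 kb to 10 Mb, X held 5.38% and 5.26% of its pairs in mock and 6.51% and 6.31% in Slmb RNAi. That is a log2 change of 0.27 ± 0.037 (SE, n = 2 against 2, limma adjusted p = 1.24e-11), with both Slmb RNAi libraries above both mock libraries. The adjacent ranges changed by 0.22 and 0.20. The deepest fall was −0.18 ± 0.044 (SE) at 100 to 133 kb. Neighbouring ranges of a library move together and share its pairs, so these p-values are too small, and with the spread of X estimated on its own the adjusted p of the longest range was 6.73e-05. Of the 18 ranges called, the number fell to 8 without Slmb RNAi replicate 1, to 10 without mock replicate 1 and to 4 without mock replicate 2.

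**Figure D2:**
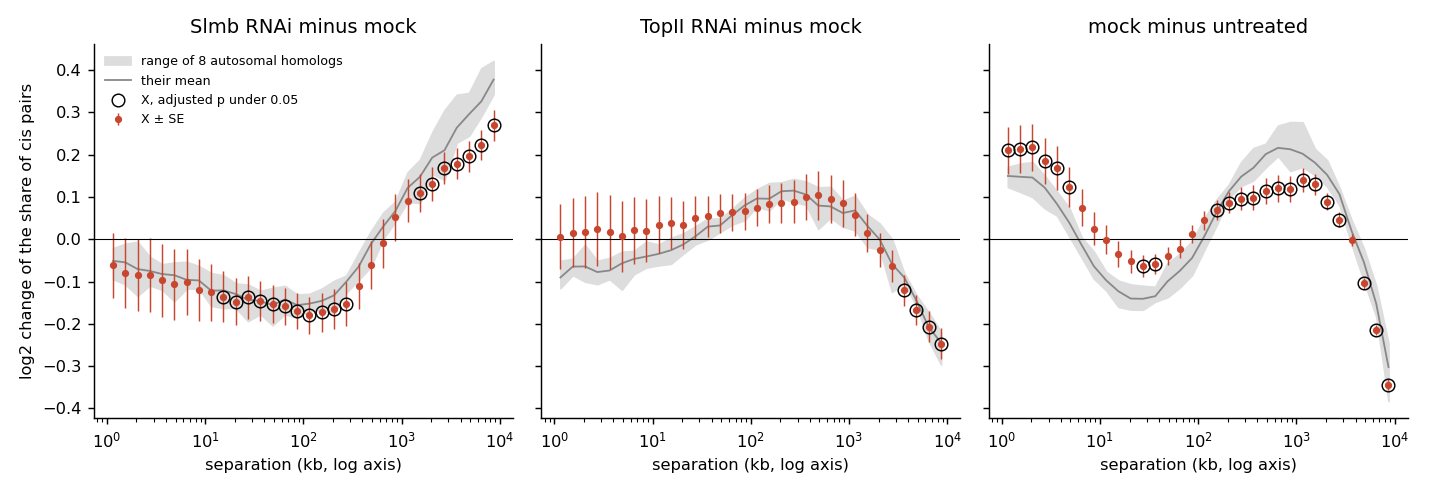
Log2 change of the share of *cis* pairs by separation (logarithmic axis) for the 3 comparisons, with X as red points (error bars ± SE from limma, circles where the adjusted p was under 0.05), the mean of the 8 autosomal homologs as a grey line and their range as a grey band. In Slmb RNAi the points of X rise to 0.27 at the longest separations, below the autosomal band, and in TopII RNAi they fall to −0.25 within it.

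On the log2 scale, the rise at long separations in Slmb RNAi was smaller on X than on autosomes. The change of X minus that of the autosomal mean was tested directly, and X was lower in 11 of 32 ranges (34.4%), at 237 to 750 kb and from 1334 kb to 10 Mb, and higher in none. The largest difference was −0.11 ± 0.021 (SE, limma adjusted p = 3.03e-05) in the longest range, where the autosomal mean rose by 0.38. In that range X exceeded the autosomal mean by 0.63 and 0.63 on the log2 scale in mock and by 0.51 and 0.53 in Slmb RNAi, with no overlap. As shares, the autosomal mean in that range was 3.48% and 3.41% in mock and 4.58% and 4.37% in Slmb RNAi, so that the gain in percentage points was not smaller on X, which started from a higher share. The number of such ranges was 4 without Slmb RNAi replicate 1 and 5 without mock replicate 1 or mock replicate 2.

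In TopII RNAi against mock, X fell in 4 ranges, from 3162 kb to 10 Mb, and rose in none, beside 10.1% of ranges lower and 1.39% higher over all arms. The longest range held 4.26% and 4.71% of the pairs of X in TopII RNAi, a log2 change of −0.25 ± 0.037 (SE, limma adjusted p = 6.32e-09, or 0.0011 with the spread of X estimated on its own). The autosomal mean changed by −0.24 there, and no range beyond 4.2 kb differed between X and autosomes. The number of ranges called on X was 11 without TopII RNAi replicate 1, 9 without TopII RNAi replicate 2, 2 without mock replicate 1, and 1 with the spread of X estimated on its own. At 1 to 4.2 kb X was higher relative to autosomes in 5 ranges (15.6%), by 0.080 to 0.10. That difference was called in none of the 32 ranges at a mapping quality score of at least 30, with only the mock and TopII RNAi libraries in the fit, or without either mock replicate, in 9 without TopII RNAi replicate 1 and in 18 without TopII RNAi replicate 2.

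Mock and untreated cells were compared in a fit of their own, with deeper libraries and smaller errors, so that its counts cannot be set against those of the knockdowns. Over all arms 78.1% of ranges were called. X was higher in mock in 17 ranges (47.6% over all arms), at 1 to 5.6 kb and from 133 kb to 3162 kb, and lower in 5 (30.6%), at 23.7 to 42.2 kb and from 4217 kb to 10 Mb. The range from 7499 kb to 10 Mb held 6.71% and 6.78% of the pairs of X in untreated cells, so that mock was lower by a log2 change of −0.34 ± 0.013 (SE). The change of X differed from that of autosomes in 30 of 32 ranges (93.8%), of which 17 (53.1%) were higher and 13 (40.6%) lower on X. Without mock replicate 1, 12 ranges of X were called in place of 22. Mock and untreated cells also differ in depth, lane and transfection, and the part of each in these changes was not tested.

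Insulation boundaries are bins across which few contacts pass. The insulation score of a bin was the log2 mean of balanced contacts between the 20 kb on its left and the 20 kb on its right, relative to the median of the arm, and minima with a prominence over 0.3 were called as boundaries. The pooled untreated map of X held 240 boundaries, with a median prominence of 0.77 (0.30 to 2.20). Intervals between neighbouring boundaries had a median length of 76 kb and ranged from 24 to 632 kb. The replicates analysed alone gave 250 and 247 boundaries, and 89.2% of the former and 90.3% of the latter had a counterpart in the other replicate within 16 kb. On the less deeply covered autosomal homologs these shares were 76.8% to 84.0% and 75.3% to 84.1%. Matches by chance are part of every such share, here and below, and their number was not estimated.

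The boundary with the highest prominence, 2.20, lay at chrX:9580001-9584000. Its log2 insulation score was −1.31 and −1.33 in untreated cells, −1.61 and −1.85 in mock, −1.58 and −1.82 in Slmb RNAi, and −1.57 and −1.72 in TopII RNAi. All 6 RNAi and mock libraries lay below both untreated ones, and the 3 treated groups overlapped. The next was at chrX:11920001-11924000 (prominence 1.98), with scores from −0.95 to −1.42 over the 8 libraries, and the third at chrX:3996001-4000000 (1.98), with scores from −0.93 to −1.48. The longest interval, chrX:21252001-21888000, lay near the proximal end of the sequence, and 57.0% of its bins were masked, so that boundaries in it could be missed. The next longest, chrX:21884001-22228000 (340 kb) and chrX:13716001-14048000 (328 kb), had 11.8% and 18.3% of bins masked. Cut into 4 parts of equal length from its distal end, X held 55, 69, 61 and 55 boundaries.

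Most boundaries of X were found again in each condition. Of the 240, 92.1% were found again in pooled mock, 92.1% in pooled Slmb RNAi and 92.9% in pooled TopII RNAi cells, and 177 (73.8%) in each of the 8 libraries alone. On the autosomal homologs 85.3% to 90.0%, 85.2% to 90.0% and 83.6% to 90.3% were found again in these pooled maps. Of the 120 with the highest prominence 105 were found in all 8 libraries, and of the other 120 it was 72. At the boundaries the mean score was lower than at 40 kb to either side by 0.50 to 0.59 in every library, the least in untreated replicate 2 and the most in mock replicate 2.

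**Figure D3:**
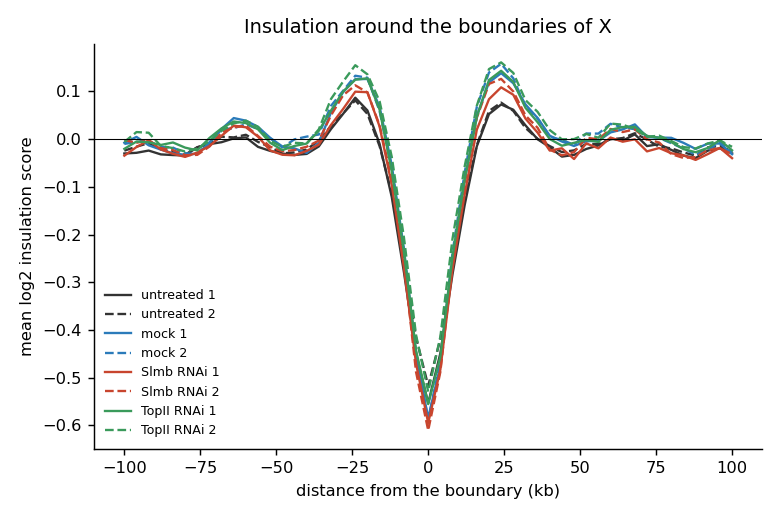
Mean log2 insulation score of X against distance (kb) from its 240 boundaries in each of the 8 libraries, solid lines replicate 1 and dashed lines replicate 2. All libraries dip at the boundary, to between −0.52 and −0.61, and return to about 0 within 40 kb.

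Tested at each boundary with limma, the insulation of X differed in none of 235 boundaries in Slmb RNAi against mock, in TopII RNAi against mock or in mock against untreated cells, beside 0% over all arms. An unadjusted p under 0.05 was reached by 1, 0 and 0 boundaries. The spread shared with the autosomes made this test blunt for X: the median absolute difference between replicates was 0.073 to 0.126 on X and 0.208 to 0.387 on autosomal homologs. With the spread of X estimated on its own, 1 boundary (0.0374% over all arms) fell in Slmb RNAi, at chrX:8612001-8616000, where the score was −0.49 and −0.52 in mock and −1.13 and −0.90 in Slmb RNAi, a change of −0.51 (limma adjusted p = 0.048).

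The difference in boundary number between X and autosomes depended on depth. In pooled untreated cells X had 12.8 boundaries per Mb and the autosomal homologs 16.3 to 19.3. At matched depth X had 309 boundaries, 16.6 per Mb, within the autosomal range of 16.3 to 19.2, and of these 72.8% were among those of the full map. Over the 8 libraries analysed alone, X had 15.3 ± 1.29 boundaries per Mb (SD) and autosomes 28.4 ± 4.64, lower on X in 8 of 8 libraries (exact sign-flip p = 0.0078, adjusted 0.010). At matched depth the values were 27.2 ± 4.95 and 28.4 ± 4.59, a difference of −1.16 ± 0.634, again in 8 of 8 libraries with the same p, and X ranked seventh of 9 arms. The sign-flip test asks whether a difference from the autosomal mean repeats over libraries. It does not ask whether X lies outside the spread among arms. With boundaries of a prominence over 0.1 the difference at matched depth was −0.61 (exact p = 0.14). The median prominence was 0.80 on X and 0.80 on autosomes (exact p = 0.95) and at matched depth 0.76 and 0.80 (exact p = 0.0078, lower on X in 8 of 8 libraries). The SD of the insulation score along an arm was 0.389 on X and 0.531 on autosomes, and 0.491 and 0.531 at matched depth, lower on X in 8 of 8 libraries at both depths (exact p = 0.0078).

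**Figure D4:**
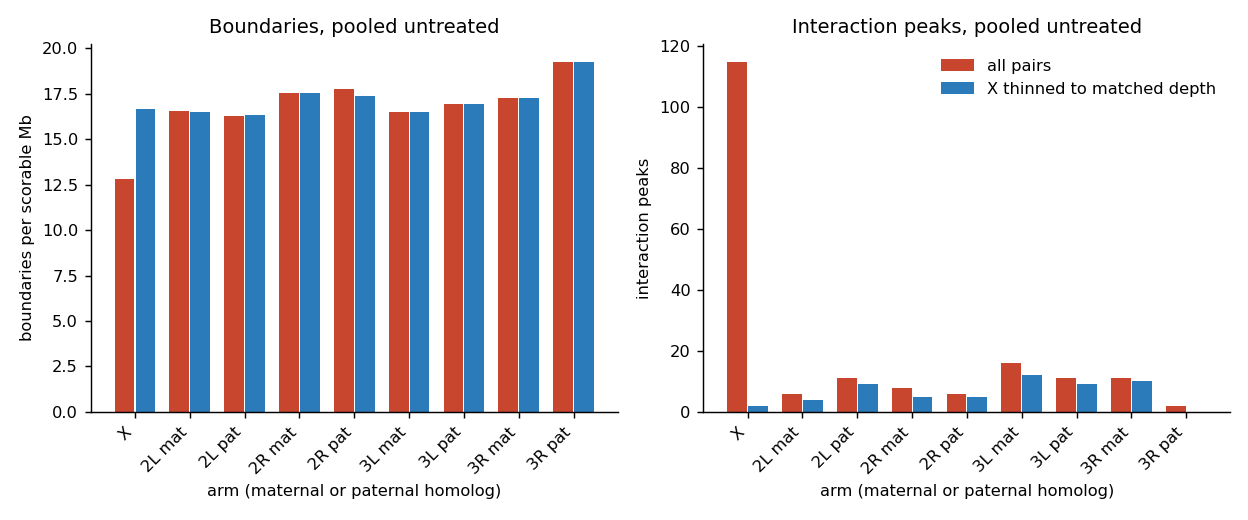
Boundaries per scorable Mb (left) and number of interaction peaks (right) of X and the 8 autosomal homologs in pooled untreated cells, from all pairs (red) and with the pairs of X thinned to matched depth (blue). X moves from 12.8 to 16.6 boundaries per Mb and from 115 to 2 peaks, while the autosomal homologs together move from 71 to 54 peaks. Pairs within autosomes were kept in full, but balancing and the adjustment of p were shared over all arms.

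Interaction peaks are small areas of the map with more contacts than their surroundings. At 8 kb, X held 115 peaks in pooled untreated cells between 64 kb and 1960 kb apart, with a median separation of 104 kb, and 15 spanned over 200 kb. Pixels in peaks made up 0.162% of those tested on X and 0.0233% over all arms. The autosomal homologs held 2 to 16 peaks each, and at matched depth X held 2 and the autosomal homologs 0 to 12. Pairs within autosomes were not thinned. Their counts can move because balancing and the adjustment of p were shared over all arms. Depth was matched on the *cis* pairs per Mb at separations of at least 12 kb, not within the separations searched for peaks. The untreated replicates alone gave 57 and 61 peaks on X. The observed over expected contact in the 40 kb around a peak was above 1 in both untreated replicates for 111 of 115 peaks and in all 6 other libraries for 109. The peaks were called in the pool of the untreated replicates, so that the value in those replicates was largely set by the call. Of the 230 anchors (216 distinct), 45.2% lay within 8 kb of a boundary, against 25.7% of all bins, masked bins included. Peaks and boundaries were called from the same pooled libraries, so that their overlap is not an independent test. In 53 peaks both anchors were in A, in 41 both were in B, and 21 joined A and B.

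The strongest peak joined chrX:11928001-11936000 and chrX:12320001-12328000, 392 kb apart, with 139 pairs where 10.4 were expected. Its anchor lies next to the second most prominent boundary. Around it, contact was 7.73 and 7.63 times the expected in untreated cells, 6.73 and 7.04 times in mock, 5.30 and 5.92 times in Slmb RNAi, and 5.93 and 5.44 times in TopII RNAi. Untreated, mock and knockdown libraries did not overlap, but neither knockdown passed the test against mock. The next peak, chrX:11936001-11944000 with chrX:12288001-12296000, belongs to the same neighbourhood (8.44 times the expected at the pixel), and the third joined chrX:6264001-6272000 and chrX:6416001-6424000 (7.68 times, 3.14 to 3.70 times in 40 kb over the 8 libraries). The longest, chrX:1256001-1264000 with chrX:3216001-3224000, rested on 13 pairs, and in 40 kb it ranged from 0.617 to 1.79 over the 8 libraries.

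No peak of X passed the test in Slmb RNAi or TopII RNAi against mock (limma, 0% over all arms). An unadjusted p under 0.05 was reached by 10 and 9 of 115, and the autosomal share at that threshold is not given here. The spread shared with the autosomes made this test blunt for X. The median absolute difference between replicates was 0.034 to 0.085 on X and 0.063 to 0.143 on autosomal homologs. With only the mock and TopII RNAi libraries in the fit, some peaks of X were called (below). In mock, 10 peaks were lower than in untreated cells, beside 19.4% over all arms, and none was higher. The clearest, chrX:14872001-14880000 with chrX:15016001-15024000, had 1.37 and 1.26 times the expected contact in untreated cells and 0.938 and 0.902 times in mock, a log2 change of −0.51 ± 0.062 (SE, limma adjusted p = 0.0011). Peaks had been chosen in untreated cells, which favours a fall in any other group, and the median change was −0.046 on X and −0.19 on autosomes. With 24 kb windows, or without either untreated replicate, none of the 10 was called, and without mock replicate 1 or 2 there were 34 or 53. With untreated libraries thinned to the depth of mock, 1 was called, and with the spread of X estimated on its own, 33. The shares over all arms under these alternatives are not given here, so that none of these counts can be read as particular to X.

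Compartments were read from an eigenvector of the observed over expected map of each arm. Of the first 3, the one that correlated best with the number of boundaries within 100 kb was taken for each arm. It was turned so that A is the side with more boundaries. On X the first eigenvector was taken. It assigned 61.6% of bins to A, in 139 runs with a median length of 24 kb, and the rest to B, in 140 runs with a median length of 8 kb. The eigenvector had a Spearman rho of 0.988 across bins between the untreated replicates, of 0.974 to 0.980 between pooled untreated and the other pooled groups, and of 0.969 with the map at matched depth. The longest A runs were chrX:336001-1600000 (1264 kb, with 16 boundaries), chrX:19040001-19872000 (832 kb, 11 boundaries) and chrX:11212001-11928000 (716 kb, 9 boundaries). The longest B runs were chrX:2644001-3564000 (920 kb, 7 boundaries), chrX:20396001-20884000 (488 kb, 2 boundaries) and chrX:14180001-14664000 (484 kb, 2 boundaries). Because A was set as the side with more boundaries, these boundary counts are no independent comparison of A with B. All 6 runs kept the sign of their mean eigenvector in each of the 8 libraries. In the same 4 parts A took 63.3%, 61.6%, 66.7% and 54.4% of bins.

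Compartment strength was the sum of the mean observed over expected contact within A and within B, divided by 2 times that between A and B, at separations of at least 200 kb. On X it was 2.27 and 2.20 in untreated cells, 2.41 and 2.44 in mock, 2.09 and 2.22 in Slmb RNAi, and 2.17 and 2.30 in TopII RNAi. Both mock libraries lay above all others, and the other 3 groups overlapped. Contact within A was 1.91 ± 0.031 times the expected in untreated cells (SD, n = 2), within B 0.931 ± 0.0010 times and between A and B 0.636 ± 0.0070 times. The autosomal mean of contact within B was 1.23 ± 0.0028 times the expected. Contact within B lay below the expected on X in all 8 libraries. This also occurred on autosomal homologs, among them maternal 3L in all 6 mock and knockdown libraries (0.830 to 0.918) and, with eigenvectors of 20 kb bins, maternal 2R in all 8 libraries.

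Compartment strength was higher on X than in the autosomal mean, by 0.54 ± 0.34 (SD) over the 8 libraries, in 7 of 8 of them (exact sign-flip p = 0.016, adjusted 0.018). In the untreated libraries X, at 2.27 and 2.20, was not the highest arm: autosomal homologs reached 2.39 (maternal 2L) and 2.37 (paternal 3R). In the mock and knockdown libraries X lay above every autosomal homolog. The autosomal mean was 2.23 in the untreated libraries that defined the bins and 1.52 to 1.60 in the groups that did not, whereas X stood at 2.24 and at 2.16 to 2.42. With eigenvectors of 20 kb bins, which rest on more pairs per bin, the difference was 0.37 ± 0.13, at matched depth it was 0.46 ± 0.20, and with both together 0.46 ± 0.12, each in 8 of 8 libraries (exact p = 0.0078). It did not pass the test at a mapping quality score of at least 30 (0.45, exact p = 0.29), which removed 74.6% to 76.0% of the *cis* pairs of autosomes.

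**Figure D5:**
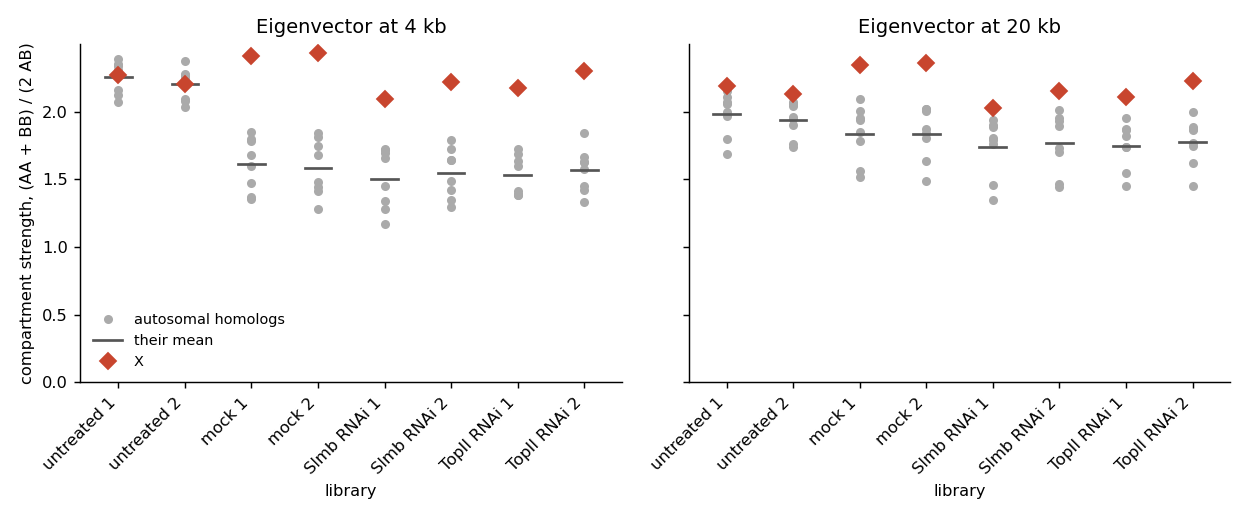
Compartment strength of X (red diamonds) and of the 8 autosomal homologs (grey points, bars for their mean) in each library, with eigenvectors of 4 kb bins (left) and of 20 kb bins (right). At 20 kb X lies above the autosomal mean in all 8 libraries, and at 4 kb the autosomal points drop outside the untreated cells in which the eigenvectors were set.

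In windows of 100 kb, the preference of X for contact with A over B bins ranged widely, from 5th to 95th percentiles of −0.66 to 1.53 on the log2 scale in untreated replicate 1. No window of 219 passed the limma test in any of the 3 comparisons (0% over all arms), and 23, 1 and 11 had an unadjusted p under 0.05 in Slmb RNAi against mock, TopII RNAi against mock and mock against untreated cells. All 23 in Slmb RNAi were lower, but the share of autosomal windows at this unadjusted threshold is not given here. The 3 with the smallest p lay at chrX:15600001-15700000, chrX:15700001-15800000 and chrX:15900001-16000000. At the first, the preference was 2.18 and 2.15 in mock and 1.78 and 1.91 in Slmb RNAi, a change of −0.32 ± 0.048 (SE, limma adjusted p = 0.61). Untreated cells lay between these groups, at 2.02 and 1.96. All 3 windows lie in the block chrX:15600001-16000000, which also makes the strongest long-range contact of X (below). The part of that contact in their preference was not tested. With the spread of X estimated on its own, 51 windows were called in Slmb RNAi (2.63% over all arms), 46 of them lower, 2 in TopII RNAi (0.0993%) and 50 in mock against untreated cells (2.98%), 28 of them higher. That estimate takes the libraries of X as the only guide to their error, and its calls were not made with the spread shared over all arms.

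Local contact at 12 to 40 kb, which tells dense from open stretches of X, was likewise called in none of 212 windows in any comparison (limma, 0% over all arms), with 1, 0 and 41 at an unadjusted p under 0.05. The share of autosomal windows at this unadjusted threshold is not given here. Without balancing, windows of X were called in mock against untreated cells (below). The 5th to 95th percentiles of local contact were −0.29 to 0.34 in untreated replicate 1 and −0.28 to 0.46 in mock replicate 1, relative to the median window. The 3 windows with the smallest p in mock against untreated cells were all higher. At chrX:3300001-3400000, inside the longest B run, local contact was 0.21 and 0.21 in untreated cells and 0.64 and 0.75 in mock (limma adjusted p = 0.21). At chrX:12100001-12200000 the values were 0.11 and 0.12 against 0.43 and 0.44, and at chrX:8700001-8800000 0.013 and 0.011 against 0.31 and 0.29. With the spread of X estimated on its own, 63 windows were called in mock against untreated cells (3.98% over all arms), 37 of them higher, and none in either knockdown.

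At separations over 2 Mb, X was scored in 1226 pairs of blocks of 400 kb, whose observed over expected contact had 5th and 95th percentiles of 0.622 and 1.39. A pair of contacts stood far above this range. Blocks chrX:800001-1200000 and chrX:15600001-16000000, 14.8 Mb apart, met at 4.31 times the expected rate, and blocks chrX:13200001-13600000 and chrX:19200001-19600000, 6 Mb apart, 3.77 times. The third pair, chrX:400001-800000 with chrX:15600001-16000000, at 2.62 times, adjoins the first. The first and last scored blocks of X met at 1.01 times the expected rate, rank 579 of 1226, so that the ends of the X sequence did not stand out. Separations and expected values follow the order of the dm3 sequence, and whether the X of DGRP-057 has the same order at these blocks was not tested, so that contact between distant loci and a different order of the sequence cannot be told apart here.

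The contact over 14.8 Mb was present in every library, at 4.31 and 4.32 times the expected in untreated cells, 5.19 and 5.41 times in mock, 3.49 and 3.64 times in Slmb RNAi, and 5.26 and 5.49 times in TopII RNAi. Slmb RNAi lay below all other libraries, and mock and TopII RNAi overlapped. The contact over 6 Mb had 3.82 and 3.72 times in untreated cells, 3.58 and 3.64 times in mock, 2.58 and 2.76 times in Slmb RNAi, and 3.53 and 3.61 times in TopII RNAi. Here too Slmb RNAi lay below the other 6 libraries. With 2 libraries against 2, no exact test of a single contact can pass the threshold. Each value is relative to the expected contact at its separation, which can differ between groups. The part of the expected contact in these differences was not tested. As a share of the pairs of X over 2 Mb, blocks chrX:800001-1000000 and chrX:15800001-16000000 held 0.177% and 0.177% in untreated cells. They held 0.174% and 0.188% in mock, 0.107% and 0.116% in Slmb RNAi, and 0.153% and 0.172% in TopII RNAi. For the 200 kb blocks of the contact over 6 Mb, Slmb RNAi held 0.0951% and 0.108%, and the other libraries 0.144% to 0.170%.

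In blocks of 200 kb the contacts were sharper, 11.7 times the expected between chrX:800001-1000000 and chrX:15800001-16000000 and 8.21 times between chrX:13200001-13400000 and chrX:19200001-19400000. All 4 blocks were in A, at 87.2% to 100% of their bins. The remaining 4 combinations of these blocks, chosen after their values were seen, met at 1.48 to 2.96 times the expected rate in pooled untreated cells. The first contact rested on 6506 and 6796 pairs in the untreated replicates and the second on 6270 and 6277, of which 96.1% to 99.3% in every library had a mapping quality score of at least 30 on both sides. Each of the 4 combinations of strands made up 22.2% to 27.7% of the pairs. In untreated replicate 1 the pairs of the first contact filled 1620 of 2500 pixels of 4 kb, and the highest pixel, chrX:904001-908000 with chrX:15956001-15960000, held 55 pairs.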

How the data were processed

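The authors mapped the Hi-C reads to a diploid version of dm3 that carries both haplotypes (bwa 0.7.15-r1140), and the alignments were parsed into pairs, filtered for unique pairs and freed of PCR duplicates with pairsamtools 0.0.1-dev. The deposited lists give, for each pair, chromosome, base position and strand of each side, and an unscaled mapping quality score. All contact counts here were made from these positions. No dm3 genome or gene annotation was used here, so regions carry no gene names or sequences. The RNA-seq samples were not analysed here.

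Maps of 4 kb bins were balanced without the first 2 diagonals, and bins were masked that had fewer than 10 nonzero pixels or whose coverage lay over 5 median absolute deviations under the median of their arm. Boundaries were matched within 16 kb. Peaks had a Poisson adjusted p under 0.01 at 8 kb, at least 1.5 times the local background and at least 3 pixels. Peak values were log2((pairs + 1)/(expected + 1)) in 40 kb. Conditions were compared with limma 3.58.1 (lmFit, eBayes with trend, R 4.3.3), Benjamini-Hochberg adjusted at 0.05, the 6 mock and knockdown libraries in 1 fit. Peak tests, boundary calls and fits were tested on simulated data. X and autosomes were compared within libraries by exact sign-flip tests, which count libraries, not cultures of one group, as replicates. Compartments used the top and bottom 20% of bins. The remaining code ran in Python 3.11.15 (numba 0.67.0, matplotlib 3.10.9, scipy 1.17.1, numpy 2.4.6, pandas 2.3.3).

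Members and lists were chosen with earlier results of these data known. Named regions followed a rule: the 3 most extreme boundaries, intervals, peaks, runs of each compartment and block pairs, the longest peak, the end blocks, and the 3 features of X with the largest called change or the smallest p for each comparison, of which some are given only in part.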

Additional observations from a re-analysis of the deposited data

Results flagged for a closer look

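Changes that differed between X and autosomes by a direct limma test of the difference (2 libraries against 2) are given here as X minus the mean of the 8 autosomal homologs, in log2 of the share of *cis* pairs. In Slmb RNAi against mock the differences were −0.11, −0.10 and −0.0996 in the 3 longest ranges, from 4217 kb to 10 Mb, all with the change of X below that of autosomes. In TopII RNAi against mock they were 0.10 at 2.4 to 3.2 kb, 0.096 at 1 to 1.3 kb and 0.091 at 3.2 to 4.2 kb, and these 3 were not called without either mock replicate. In mock against untreated cells they were 0.096 at 10 to 13.3 kb, −0.095 at 562 to 750 kb and −0.094 at 750 kb to 1 Mb. The 3 largest called differences of each comparison are listed, no group has the 4 samples that a test for outlying samples needs, and no cause was tested.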

How the results depend on the processing

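Of 333 recomputed main values and counts, 251 kept their direction and their side of the threshold or stayed within the spread or within 1.5 times the count, 68 moved, 3 were weaker, 3 stronger and 8 reversed. Of 549 recomputed values of single features 499 were kept in the same sense, with 34 weaker, 16 stronger and 0 reversed. The replicates share only a number between groups. The correlation of same-numbered deviations on X was 0.87, −0.85 and −0.62 for the contact frequency in Slmb RNAi, TopII RNAi and mock against its control. With the replicate block, X minus autosomes in TopII RNAi and the peaks in mock against untreated cells each had 0 calls in place of 5 and 10, the ranges of X called were 14, 3 and 19 in place of 18, 4 and 22, and no other count moved by over 1.5 times. A crossed pairing, added after seeing the data, gave 14 ranges in TopII RNAi.

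Leaving out each library in turn gave 4 to 13 called ranges of X in Slmb RNAi, 2 to 11 in TopII RNAi and 12 to 18 in mock against untreated cells, and for X minus autosomes 4 to 8 and 0 to 18 in the knockdowns. Called peaks ranged from 0 to 1 in each knockdown and from 0 to 53 in mock against untreated cells, and the difference in median prominence from −0.0057 to 0.0059. A lone library was assumed to vary like the other groups.

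At a mapping quality score of at least 30, X minus autosomes was 0.067 for the slope over 1 to 10 kb, −25.7 boundaries per Mb, −0.179 in median prominence (past the threshold), −0.411 in SD of the insulation score and 0.45 in compartment strength (no longer past it), and TopII RNAi had 0 ranges for X minus autosomes. With *thom* pairs added, the slope difference was −0.0157 over 1 to 10 kb (reversed) and 0.041 over 10 to 100 kb, and 14 ranges were called for X minus autosomes in TopII RNAi. At matched depth the differences were −1.16 boundaries per Mb, −0.043 in prominence (past the threshold) and −0.0396 in SD, and 2 peaks of X were called. With a prominence over 0.1 as well, an alternative added after seeing the data, they were −0.61, −0.031 and −0.0396. A prominence over 0.1 alone gave −20.0 boundaries per Mb and a diamond of 10 bins −5.22, with −0.042 in SD and 152 boundaries of X.

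The difference in median prominence, which did not pass the test, changed sign without 3R (0.0046), with maternal homologs only (0.0046), with each arm balanced alone (0.0097), with a prominence over 0.1 (0.0054) and with a diamond of 10 bins (0.22). With 10% extremes the difference in compartment strength was 0.55, no longer past the threshold.

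With the spread of X estimated on its own, added after seeing the data, calls on X were 1 range in TopII RNAi, 1 boundary in Slmb RNAi, 33 peaks and 63 local windows in mock against untreated cells, and 51, 2 and 50 compartment windows in Slmb RNAi, TopII RNAi and mock. Unbalanced counts gave 80 called local windows of X in mock against untreated cells, where balanced counts gave none. The share over all arms with unbalanced counts is not given here, so that this count cannot be read as particular to X. With only the groups compared in the fit, TopII RNAi had 0 ranges for X minus autosomes and 3 called peaks. Windows of 24 kb gave 0 called peaks in mock against untreated cells and thinned untreated libraries 1.

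At least 2 times the local background left 24 peaks of X, and the untreated replicates alone gave 57 and 61. The A share of X was 62.5% at 20 kb and 62.2% in untreated replicate 2. Blocks of 200 kb gave 11.7, 8.21, 4.78 and 1.37 times the expected contact for the 3 highest pairs and the end blocks, unbalanced counts 4.77, 3.53 and 2.94 for the 3 highest, and untreated replicate 2 alone 4.32 for the highest. Depth limits autosomal maps more than X, and causes of these differences were not tested.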
